A study of Mus musculus with 6 samples.

Results

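The genes described here belong to the Kcnq1 imprinted domain of distal mouse chromosome 7. The 9 members are Phlda2, Cdkn1c, Slc22a18, Kcnq1, Ascl2, Tssc4, Nap1l4, Osbpl5 and Cd81. They were chosen by name, and all 9 were found among the 26567 genes that could be paired with the deposited transcripts. In the GRCm38 assembly the domain runs from Ascl2, which starts at base 142966822 of chromosome 7, to Osbpl5, which ends at base 143757008.

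The RNA came from sorted cap mesenchyme, a condensed sheath at each tip of the branching ureteric tree in which nephrons begin. Kidneys were taken from C57BL/6 mice at embryonic day 18.5. The 3 knockout (KO) libraries came from Dnmt1 -/- cells with both conditional alleles deleted, and the 3 heterozygous (HET) libraries from Dnmt1 +/- cells. In both groups Cre recombinase was driven by Six2, a transcription factor of nephron progenitors, so HET cells also carried Cre and 1 deleted allele and no wild-type library was compared. Dnmt1 is the maintenance DNA methyltransferase, which restores methylation on newly made strands as cells divide.

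In an imprinted domain, a methylation mark set in the germ line makes the copies inherited from the mother and from the father behave differently. In this domain the mark lies at the promoter of Kcnq1ot1, a long non-coding RNA transcribed from the unmethylated paternal copy, antisense to Kcnq1. Phlda2, Cdkn1c, Slc22a18, Kcnq1 and Ascl2 are known in the mouse as maternally expressed genes. The other members, Tssc4, Nap1l4, Osbpl5 and Cd81, are known for imprinted expression in the placenta. DNA methylation and the parental origin of transcripts were not measured in these libraries.

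Sequences before the transcription start are shown for 3 of the maternally expressed members, those that the promoter table held. Phlda2 had the largest change of the 8 tested members, its neighbour Slc22a18 is shown for contrast because it did not pass the test, and Ascl2 was near 0 in HET cells. Each line gives the 250 bases before 1 listed start for GRCm38.p6. They run 5′ to 3′ on the strand of the gene, with CG dinucleotides (CpG sites) in capitals. The windows are chr7:143502525-143502774 on the minus strand, chr7:143473539-143473788 on the plus strand and chr7:142969265-142969514 on the minus strand. RefSeq's gene spans are chr7:143501545-143503145 for Phlda2 and chr7:143473726-143499334 for Slc22a18. The Phlda2 window therefore lies inside the gene span, and the Slc22a18 window runs into it.
Phlda2: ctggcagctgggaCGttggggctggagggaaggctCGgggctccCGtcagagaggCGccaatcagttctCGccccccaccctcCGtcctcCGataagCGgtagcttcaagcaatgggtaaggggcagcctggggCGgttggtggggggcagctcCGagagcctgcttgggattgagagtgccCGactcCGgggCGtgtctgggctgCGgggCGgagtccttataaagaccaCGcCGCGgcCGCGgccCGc
Slc22a18: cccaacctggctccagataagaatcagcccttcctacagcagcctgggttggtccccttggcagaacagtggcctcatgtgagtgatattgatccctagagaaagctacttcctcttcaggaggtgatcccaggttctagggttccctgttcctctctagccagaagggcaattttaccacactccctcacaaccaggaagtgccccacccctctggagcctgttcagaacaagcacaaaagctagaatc
Ascl2: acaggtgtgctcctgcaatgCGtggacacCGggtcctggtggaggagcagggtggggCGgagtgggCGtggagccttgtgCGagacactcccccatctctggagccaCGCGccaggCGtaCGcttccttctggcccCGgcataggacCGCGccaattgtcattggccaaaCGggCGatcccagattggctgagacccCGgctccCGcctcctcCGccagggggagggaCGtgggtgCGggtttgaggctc
The Phlda2 window held 21 CpG sites, a number reached by 16.4% of the 32841 promoters in that table, whose median was 6. The Slc22a18 window held none, whereas 92.1% of promoters had at least 1. Ascl2 had 19. Among members whose RNA did not pass the test, Cd81 had 16 and Tssc4 had 17, and the windows listed for Osbpl5 had 14, 1 and 18, so CpG-rich windows occurred both with and without a change in RNA. The Phlda2 window also contained TATAAA, the core of a TATA box, near its 3′ end. TATAAA or its reverse complement TTTATA occurred in 12.4% of all promoters. Sequences were matched by symbol for 6 of the 9 members and for Kcnq1ot1, which had 5 CpG sites.

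Each library held between 46741667 and 61585484 kallisto estimated counts. Dnmt1 itself was at 14.9 to 20.9 CPM (counts scaled to a common, TMM-normalised library size) in KO and 40.0 to 52.4 CPM in HET libraries. The signal left in KO could include the part of the transcript that the deletion spared. All 9 cap mesenchyme markers examined, Six2 and Cited1 among them, were present. Their summed level was 1080 to 1310 CPM in KO and 1370 to 1570 CPM in HET libraries, and 1 of the 9 fell (edgeR). Y-linked genes summed to more than 50 CPM in KO replicate 2 and in HET replicates 1 and 3, so both groups mixed the sexes. Of 16989 genes tested, 4.92% were higher and 1.92% lower in KO (edgeR quasi-likelihood test, p adjusted by Benjamini-Hochberg, BH, under 0.05). Rises made up 71.9% of the calls, against 27.9% when libraries were scaled to their totals and 47.7% to 53.5% on TPM values (which also correct for transcript length). The labels do not say whether libraries came from separate embryos or litters, so p-values measure the spread between these samples only.

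Within the domain, Phlda2 rose strongly in Dnmt1 KO cap mesenchyme, Kcnq1 was higher at a low level, and the other 6 tested members did not pass the test. Those 6 include Cdkn1c, which only Slc22a18 separates from Phlda2 among the members. Ascl2 had too few counts to be tested. So 2 of 8 tested members were higher and none was lower, beside backgrounds of 4.92% and 1.92% of all genes tested. The KO and HET libraries did not overlap for those 2 members, as for 29% of all genes tested. The median log2 fold change was 0.16 over the 8 tested members and -0.003 over all genes tested. Phlda2, with 8 counts in HET replicate 1, passed the count filter only through its KO libraries. Ascl2 too could have passed it only through KO. In sorted cells measured in bulk, a change in RNA per cell and a change in the share of cells that express a gene cannot be told apart.

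**Figure D1:**
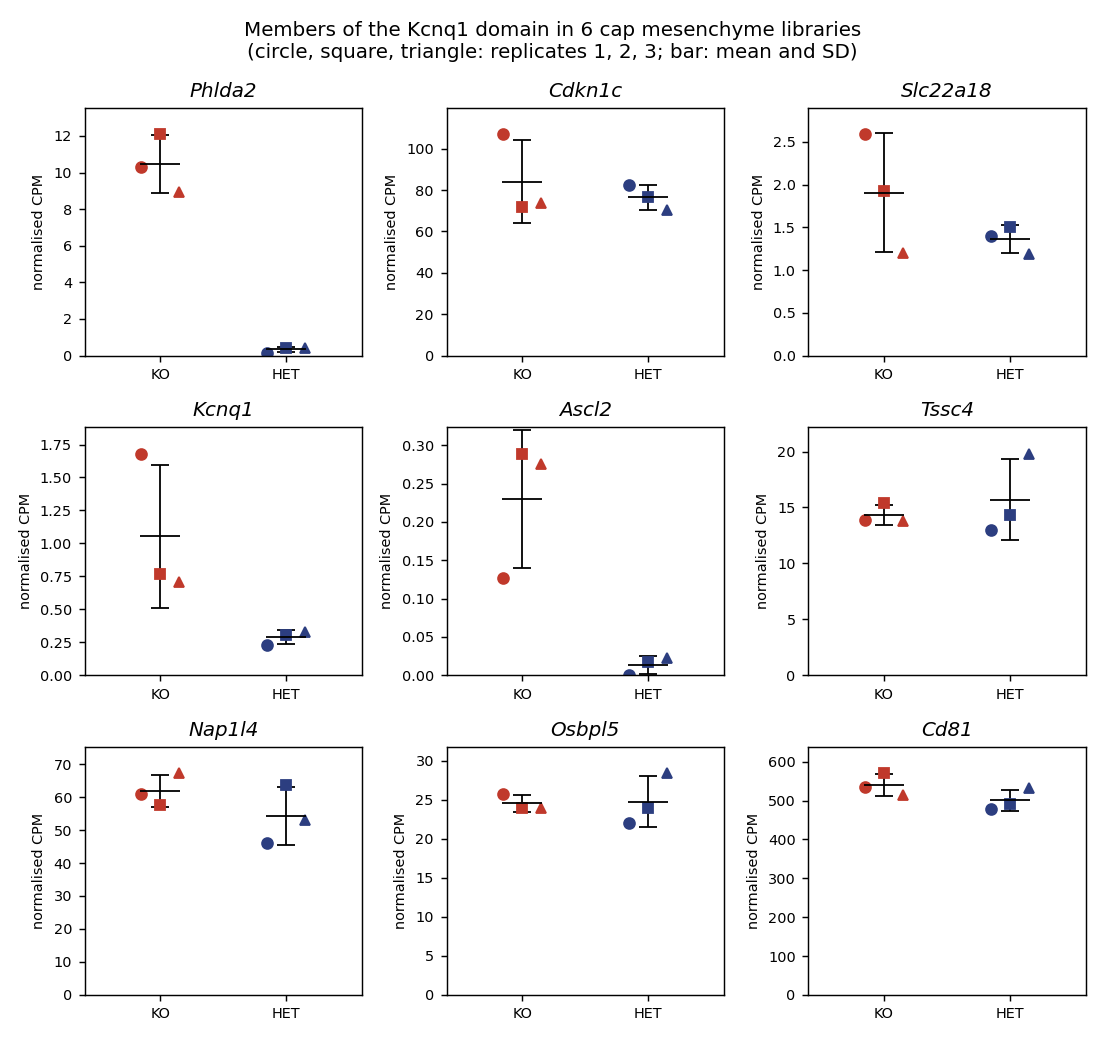
Normalised CPM of the 9 members in each library, with KO left of HET in every panel and a linear axis from 0. Points are libraries and bars are the mean and SD of 3. Phlda2, Kcnq1 and Ascl2 are the panels in which the groups do not overlap, and Phlda2 is at 8.94 to 12.1 CPM in KO against 0.156 to 0.441 CPM in HET.

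Phlda2 encodes a small pleckstrin homology domain protein that restrains growth of the mouse placenta. It had 485, 628 and 455 estimated counts in KO replicates 1 to 3, against 8, 24 and 20 in HET replicates 1 to 3. Every KO library therefore held at least 455 counts where no HET library held more than 24. In normalised terms the level was 10.4 ± 1.59 CPM in KO and 0.335 ± 0.156 CPM in HET cells (SD, n = 3 each). The log2 fold change was 4.95 ± 0.35 (SE; edgeR, BH-adjusted p = 9.1e-06), or 31.0-fold, with 19.2-fold and 50.2-fold at 2 SE on either side. Only 235 of the 16989 genes tested had a larger fitted log2 fold change. The call held under all 18 alternative analyses, with log2 fold changes between 3.57 and 5.18. The lowest of these came from log2(TPM + 1), a scale that understates the change of a gene that is low in 1 group.

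Phlda2 also took another place among its neighbours. In TPM, which can be compared between genes, it was at 18.3 ± 2.47 in KO and 0.632 ± 0.275 in HET cells (SD, n = 3 each). In KO cells it ranked 4 of 9 members, above Tssc4 and Osbpl5, and in HET cells it ranked 7 of 9, below Slc22a18. In both groups the order of mean TPM was otherwise Cd81, Cdkn1c, Nap1l4, Tssc4, Osbpl5, Slc22a18, Kcnq1 and Ascl2. No 2 neighbours in either order overlapped in TPM over the 3 libraries. Among all genes tested, 46.3% had a lower mean CPM than Phlda2 in KO cells and 7.8% in HET cells.

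The genes whose profile over the 6 libraries was most like that of Phlda2 were on chromosome X. Likeness was the root mean square difference between centred log2(CPM + 1) values among 13988 genes averaging 1 CPM or more. Gm15023 differed by 0.108, the homeobox gene Rhox2d by 0.117 and Mageb10-ps by 0.133. Their levels in KO cells averaged 8.28, 7.40 and 7.97 CPM, near that of Phlda2, and none of the 3 exceeded 0.034 CPM in a HET library. Phlda2 had at least 0.156 CPM in every HET library, so it was low there but not at 0. Members of these X-linked families are near-identical, and how kallisto divided their reads is uncertain.

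Cdkn1c encodes p57, an inhibitor of cyclin-dependent kinases that restrains proliferation and is also known from maturing podocytes. It was well expressed in both groups, at 107, 71.8 and 73.5 CPM in KO replicates 1 to 3 and 82.3, 76.5 and 70.5 CPM in HET replicates 1 to 3. The groups overlapped, with KO replicate 1 above all other libraries. The means were 84.1 ± 19.8 CPM in KO and 76.4 ± 5.90 CPM in HET cells (SD, n = 3 each). The log2 fold change of 0.14 ± 0.15 did not pass (SE; edgeR, BH-adjusted p = 0.636), and 2 SE on either side correspond to 0.890-fold and 1.36-fold. Without KO replicate 1 the value was -0.06 ± 0.10, and the sign also turned with library totals (-0.02) and TPM (-0.01). Podocyte markers other than Cdkn1c summed to 71.2, 54.3 and 51.1 CPM in KO replicates 1 to 3 and 75.3 to 85.3 CPM in HET libraries. Among KO libraries their sum was therefore highest where Cdkn1c was, although below every HET library. Podxl, at 21.7 CPM, and Clic5, at 5.62 CPM, were higher in KO replicate 1 than in any other library. The part of these markers in the Cdkn1c value was not tested.

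Reads of Cdkn1c were divided between transcripts Cdkn1c-201 and Cdkn1c-202, which are nearly equal in length. Cdkn1c-202 held 49.5% ± 4.90 of the gene's estimated counts in KO and 47% ± 6.20 in HET cells (SD, n = 3 each; 2-sided exact permutation p = 0.5, where the smallest possible is 0.1). The profile most like that of Cdkn1c was that of Flrt2, a membrane protein gene on chromosome 12, with a root mean square difference of 0.0395. Tox (0.0471) and Mppe1 (0.0523) came next. All 3 shared the high value in KO replicate 1, at 39.8 CPM against 28.0 to 32.0 CPM in HET for Flrt2.

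Slc22a18 encodes a transporter-like membrane protein and lies between Cdkn1c and Phlda2. Its level was 2.59, 1.93 and 1.20 CPM in KO replicates 1 to 3 and 1.40, 1.5 and 1.19 CPM in HET replicates 1 to 3. The groups overlapped: KO replicates 1 and 2 were above every HET library, and KO replicate 3 was level with the lowest, HET replicate 3. The log2 fold change of 0.48 ± 0.33 did not pass (SE; edgeR, BH-adjusted p = 0.431), with 0.880-fold and 2.21-fold at 2 SE on either side. Its main transcript, Slc22a18-001, took 91.0% ± 9.08 of the counts in KO and 77.1% ± 17.7 in HET cells (2-sided exact permutation p = 0.3, n = 3 each). Slc22a18-002 was found only in KO replicate 1 and HET replicate 1, with 15.2% of counts in KO replicate 1 and 34.5% in HET replicate 1.

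Kcnq1 encodes the pore-forming subunit of a voltage-gated potassium channel. It had 79.4, 40.4 and 36.1 estimated counts in KO replicates 1 to 3, against 12.4, 18.1 and 15.2 in HET replicates 1 to 3. All KO libraries were above all HET libraries, and KO replicate 1 held about as many counts as the other KO libraries together. The levels were 1.05 ± 0.542 CPM in KO and 0.290 ± 0.0508 CPM in HET cells (SD, n = 3 each). The log2 fold change was 1.85 ± 0.47 (SE; edgeR, BH-adjusted p = 0.0418).

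The Kcnq1 call was lost when any 1 library other than KO replicate 3 was left out (edgeR, BH adjustment throughout). Without KO replicate 1 the log2 fold change was smaller, at 1.35 ± 0.49 (adjusted p = 0.165). It stayed near the full value without KO replicate 2 (2.04, adjusted p = 0.0776), HET replicate 1 (1.71, adjusted p = 0.112), HET replicate 2 (1.89, adjusted p = 0.118) or HET replicate 3 (1.95, adjusted p = 0.0975). It was also lost with sex as a covariate (1.70 ± 0.52, adjusted p = 0.120) and with limma voom (adjusted p = 0.0753), and was kept in 7 of 16 alternatives. The direction was the same in all 16.

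For 5 of the 7 marker lists other than that of cap mesenchyme, the sums stood in the same order over the KO libraries as Kcnq1. The podocyte sums given above are 1 of the 5. Endothelium markers summed to 217, 95.4 and 56.1 CPM in KO replicates 1 to 3 and 35.7 to 50.7 CPM in HET libraries, with 1 of 10 called higher. Ureteric bud and collecting duct markers summed to 213, 109 and 48.3 CPM in KO replicates 1 to 3 and 27.1 to 54.0 CPM in HET libraries, with 1 of 8 called higher. Stroma and pericyte markers summed to 892, 459 and 390 CPM in KO replicates 1 to 3 and 281 to 367 CPM in HET libraries, with none of 8 called. Tubule markers summed to 138, 63.9 and 37.1 CPM in KO replicates 1 to 3 and 37.2 to 61.3 CPM in HET libraries, with 1 of 8 called higher. Markers of the committed and early nephron stood in the reverse order, at 671, 706 and 748 CPM in KO replicates 1 to 3 and 738 to 785 CPM in HET libraries, with 1 of 8 called higher and 1 lower. Macrophage and blood markers followed neither order, at 116, 70.8 and 123 CPM in KO replicates 1 to 3 and 74.2 to 158 CPM in HET libraries, with 1 of 8 called higher. These calls stand beside 4.92% higher and 1.92% lower among all genes tested. No marker of these lists was at 0 in all libraries, and their part in the Kcnq1 value was not tested. Phlda2 did not follow that order: it was highest in KO replicate 2, and without KO replicate 1 its log2 fold change was 4.97 ± 0.36 (SE; edgeR, BH-adjusted p = 1.06e-05). Kcnq1ot1 lies inside Kcnq1 on the other strand, at chr7:143213111-143296547 in GRCm38. The strandedness of the libraries is not stated, so reads of the antisense RNA over shared bases could not be told from those of Kcnq1.

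**Figure D2:**
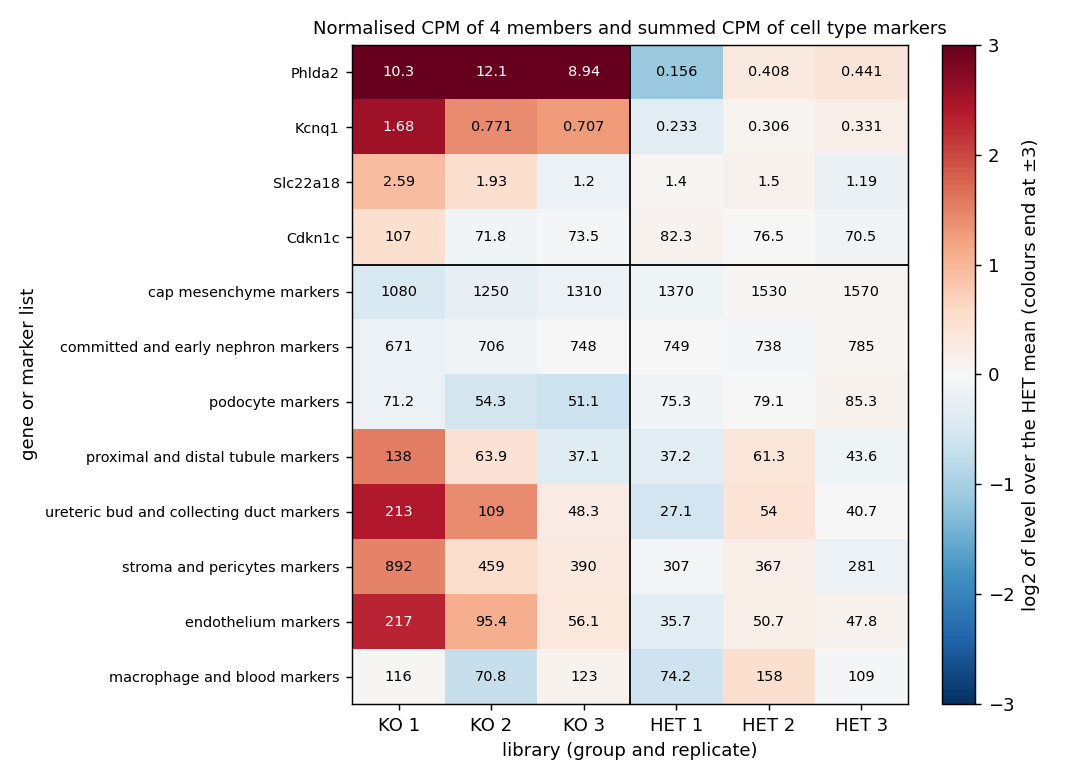
Normalised CPM of 4 members (top) and summed CPM of 8 cell type marker lists (below) in each library, with KO left of HET. Numbers are levels and colours are log2 ratios to the HET mean. Kcnq1 (1.68, 0.771 and 0.707 CPM in KO) is highest in KO replicate 1, like the endothelium and ureteric bud rows, while Phlda2 is high in all 3 KO libraries; the Cdkn1c gene itself is left out of the podocyte sum.

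Ascl2 encodes a basic helix-loop-helix transcription factor needed for the mouse placenta. It had 6, 15 and 14 estimated counts in KO replicates 1 to 3 and 0, 1 and 1 in HET replicates 1 to 3. The groups did not overlap, but the gene stayed below the count filter and was not tested. Over each group the totals were 35 counts in KO and 2 in HET, a normalised ratio of 18.2 with a 95% Clopper-Pearson interval of 4.66 to 156 that covers counting error only. With no low-count filter the adjusted p was 0.0545 (edgeR, BH adjustment), and it was 0.0340 to 0.112 in the 7 alternatives that tested it. All of its counts fell on transcript Ascl2-201.

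None of Cd81, Nap1l4, Tssc4 and Osbpl5 passed the test, with intervals at 2 SE that lie between 0.730-fold and 1.35-fold. Cd81, a tetraspanin of the cell surface, was the most abundant member and stood above 98.6% of tested genes in both groups. It was at 540 ± 28.1 CPM in KO and 501 ± 27.8 CPM in HET cells (SD, n = 3 each), and its log2 fold change of 0.11 ± 0.08 did not pass (SE; edgeR, BH-adjusted p = 0.470). At 2 SE on either side this is 0.963-fold and 1.20-fold. Nap1l4, a histone chaperone, was at 57.6 to 67.2 CPM in KO and 46.2 to 63.6 CPM in HET libraries, with a log2 fold change of 0.19 ± 0.12 (adjusted p = 0.393; 0.965-fold to 1.35-fold at 2 SE). Tssc4, which takes part in assembly of the spliceosome in human cells, was at 13.8 to 15.4 CPM in KO and 13 to 19.8 CPM in HET libraries, with -0.13 ± 0.16 (adjusted p = 0.682; 0.730-fold to 1.15-fold). Osbpl5, a lipid transfer protein, was at 23.9 to 25.8 CPM in KO and 22 to 28.4 CPM in HET libraries, with -0.01 ± 0.12 (adjusted p = 0.970; 0.844-fold to 1.17-fold). KO and HET libraries overlapped for all 4 genes. The signs for Cd81, Tssc4 and Osbpl5 turned under at least 1 alternative.

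Isoform shares within these genes overlapped between the groups. Counts of Cd81 fell almost wholly on Cd81-001, with 98.9% ± 0.125 in KO and 99.0% ± 0.178 in HET cells. Osbpl5 was divided between the coding transcript Osbpl5-001, with 69.6% ± 5.03 in KO and 67.2% ± 6.00 in HET cells, and Osbpl5-003, a retained intron. Osbpl5-003 held 27.7% ± 5.40 of counts in KO and 30.6% ± 5.11 in HET cells. For Tssc4, the share of Tssc4-001 was 68.9% ± 7.72 in KO and 68.8% ± 4.36 in HET cells (SD, n = 3 each). Tssc4-003 held 12.1% ± 5.68 in KO and 15.5% ± 5.20 in HET cells, and Tssc4-005 held 19% ± 4.65 in KO and 14.3% ± 2.05 in HET cells. The 2-sided exact permutation p for these shares lay between 0.3 and 0.9; with 3 libraries a group it cannot go below 0.1, so no difference in share could have passed 0.05. Of 10 transcripts with at least 5% of the counts of a gene that has several, none had shares that separated the groups. Tested transcript by transcript, Phlda2-001 was the only member transcript called (log2 fold change 5.02 ± 0.40, SE; edgeR, BH-adjusted p = 0.00129), where 1.59% of 50137 transcripts were higher and 0.199% lower in KO. Kcnq1-201 did not pass at that level (1.91 ± 0.46, adjusted p = 0.131).

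Around the members, 1 of the other genes inside or next to the domain passed the test. Of 10 neighbours listed, 9 were measured and 7 tested, and Kcnq1ot1 was not analysed here. Cars, the cysteinyl-tRNA synthetase gene on the far side of Nap1l4, was the only one called. It was at 59.2, 67.4 and 59.9 CPM in KO and 44.5, 50.8 and 47.7 CPM in HET replicates 1 to 3 (log2 fold change 0.38 ± 0.09, SE; edgeR, BH-adjusted p = 0.0328). That call was kept without KO replicate 1 and lost without any 1 of the other 5 libraries. Dhcr7, an enzyme of cholesterol synthesis, had 0.39 ± 0.12 (adjusted p = 0.0836), and the groups did not overlap. The decoy receptor genes Tnfrsf22 and Tnfrsf23 had 0.33 ± 0.16 and 0.75 ± 0.36, their relative Tnfrsf26 had -0.18 ± 0.34, the ion channel gene Trpm5 had 0.27 ± 0.23 and Nadsyn1, of NAD synthesis, had 0.09 ± 0.19 (adjusted p between 0.255 and 0.822). The median over the 7 was 0.33. Th and Tspan32 were below the count filter, at 0.133 and 0.176 CPM in KO and 0.0113 and 0.155 CPM in HET cells.

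**Figure D3:**
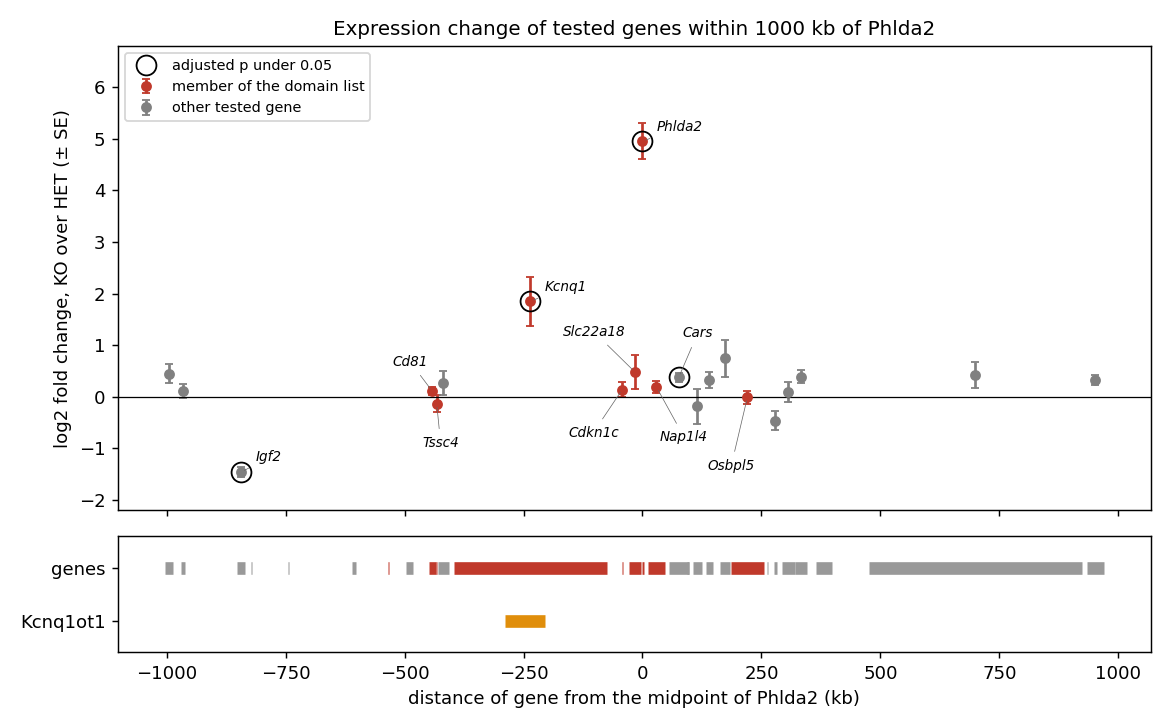
Log2 fold change (KO over HET, ± SE) of the tested genes whose midpoint lies within 1000 kb of that of Phlda2, by distance, with the extent of measured genes and of Kcnq1ot1 below (RefSeq, GRCm38). Ringed genes have an adjusted p under 0.05. Of 21 genes tested, Phlda2 (4.95) and Kcnq1 (1.85) stand above the rest, and Igf2 (-1.46) is the only one called lower.

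The neighbouring Igf2 and H19 domain is controlled by an imprinting centre of its own. H19 itself was not found among the paired genes. Igf2, a paternally expressed growth factor, fell to 231 ± 23.5 CPM in KO against 636 ± 42.5 CPM in HET cells (SD, n = 3 each). Its log2 fold change was -1.46 ± 0.10 (SE; edgeR, BH-adjusted p = 5.76e-06). Of 7 tested genes in that list, Lsp1, of leukocyte signalling, also fell (-0.50 ± 0.10, adjusted p = 0.0141) and Dusp8, a phosphatase of MAP kinases, rose (0.83 ± 0.16, adjusted p = 0.0166). The 4 others were Mrpl23 (0.11 ± 0.13), Tnnt3 (0.45 ± 0.18), Tnni2 (0.50 ± 0.22) and Ctsd (0.18 ± 0.10), with adjusted p between 0.184 and 0.647 and a list median of 0.18. Over all genes tested, 4.92% were higher and 1.92% lower. Igf2 held its call without each library in turn. Lsp1 lost it without KO replicate 3, HET replicate 2 or HET replicate 3, and Dusp8 lost it without KO replicate 2 or HET replicate 2.

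Imprinted genes tested elsewhere moved in both directions and by less than Phlda2. Their calls stand beside 4.92% higher and 1.92% lower among all genes tested. Of 19 other maternally expressed genes listed, 14 were found among the paired genes and 12 were tested. H19, Meg3, Rian, Mirg and Nesp were not found, nor was Airn of the paternally expressed list. Of the 12 tested, 1 was higher, 2 were lower and 9 did not pass, with a median log2 fold change of -0.10. Grb10, an inhibitor of growth factor receptors, fell (-1.10 ± 0.10) and held its call without each library. Zim1 fell (-1.22 ± 0.25) and Atp10a rose (0.65 ± 0.14). Of 20 paternally expressed genes tested, Mest (0.36 ± 0.08) and Snrpn (0.45 ± 0.09) rose, Igf2 and Sfmbt2 (-1.07 ± 0.17) fell, and 16 did not pass, with a median of 0.33. Adjusted p over these genes was at most 0.0278 (SE beside each value; edgeR, BH adjustment). The calls for Zim1 were lost without KO replicate 2 or any 1 HET replicate, those for Atp10a and Mest without KO replicate 2 or 3 or HET replicate 2 or 3, and that for Snrpn without KO replicate 2.

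Paralogs and partners of the members were measured alongside. Of 25 tested, 5 were higher, 2 were lower and 18 did not pass, with a median log2 fold change of -0.01. The shares over all genes tested were 4.92% higher and 1.92% lower. Cdkn1a, the p21 inhibitor related to Cdkn1c, rose to 103 ± 16.5 CPM in KO against 52.9 ± 3.98 CPM in HET cells (0.97 ± 0.12, adjusted p = 0.000597). Among tetraspanins related to Cd81, Cd9 (0.43 ± 0.08) and Cd151 (0.53 ± 0.10) rose, while their partner Igsf8 fell (-0.69 ± 0.15). Kcnq5, a potassium channel gene related to Kcnq1, rose by 0.71 ± 0.15, and Slc22a17, related to Slc22a18, fell by 0.44 ± 0.09 on the log2 scale (SE; edgeR, BH-adjusted p at most 0.0179). Without each library in turn the call was kept for Cdkn1a. It was lost for Cd151 without KO replicate 2 or HET replicate 2, and for Cd9 without HET replicate 2. On unfiltered log2(TPM + 1) values Kcnq5 was at 0.06. In edgeR its call was lost without KO replicate 2 or HET replicate 2 or 3. For Slc22a17 it was lost without KO replicate 1 or 2, and for Igsf8 without either of these or HET replicate 2 or 3.

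**Figure D4:**
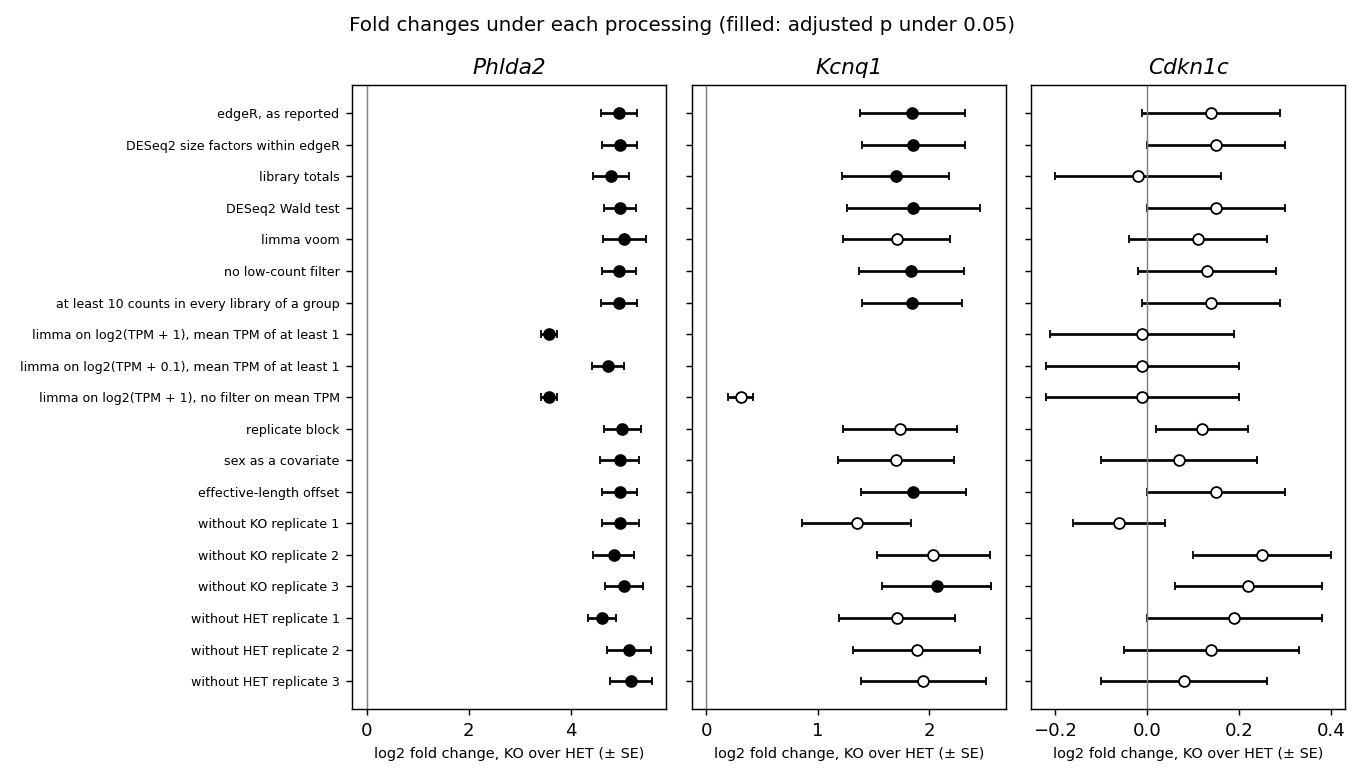
Log2 fold change (KO over HET, ± SE) of Phlda2, Kcnq1 and Cdkn1c under each processing, with the reported edgeR fit at the top and a separate linear axis per gene. Filled points have an adjusted p under 0.05. Phlda2 stays between 3.57 and 5.18 and is filled throughout, Kcnq1 is filled in the reported fit and 7 alternatives, and Cdkn1c is never filled and lies between -0.06 and 0.25.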

How the data were processed

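Each library was made from 50 ng of total RNA of sorted cap mesenchyme and run on a HiSeq2000, according to the labels. The authors ran kallisto, per the submitters' processing notes, which also name mm10, and deposited an estimated count for each transcript. The same deposited tables hold a TPM value and an effective length in bases per transcript. No source used here gives the kallisto version, the index or the strandedness.

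GENCODE vM1 paired 74519 of 96626 transcripts with 26567 genes. The 22107 others held 7.18% to 7.6% of counts and entered the transcript test only. Counts were summed per gene and rounded. KO and HET were compared without covariates by quasi-likelihood in edgeR (version 4.0.16, in R 4.3.3, with limma 3.58.1), after TMM scaling and filterByExpr and with robust dispersions, with Benjamini-Hochberg adjustment over all 16989 genes or 50137 transcripts kept, at 0.05. SE is the log2 fold change over the square root of F. Gene coordinates are RefSeq's for GRCm38.p6. At this depth 3 counts are 0.0487 to 0.0642 CPM, and count intervals cover counting error only.

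The members and lists were chosen with earlier results of these data known. The text names all members, their transcripts with at least 5% of the counts, every tested gene of the 2 chromosome 7 lists, up to 6 called genes of each other list by smallest p, and the 3 closest profiles for Phlda2 and Cdkn1c. The transcript step and the gene step were tested on simulated data with known changes: at 16697 genes, 99% of 4-fold and 66% of 2-fold changes in a simulated KO against HET comparison were recovered. At 50345 transcripts it was 99% of 4-fold and 40% of 2-fold changes. Both levels were simulated with 1 spread, near the biological coefficient of variation of 0.21 fitted to genes. Transcripts had 0.4, and recovery at that wider spread was not tested. The changed features had expected counts above the average counts of Phlda2, Kcnq1 and Ascl2 in HET libraries. Recovery at such low counts was not tested either. No libraries agreed within sampling noise (chi-square per degree of freedom of at least 13.63). Alternatives were DESeq2 1.42.0, its size factors, library totals, limma voom, other filters, TPM on a log2 scale, effective-length offsets, the replicate block, sex as a covariate and each library left out.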

Additional observations from a re-analysis of the deposited data

How the results depend on the processing

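The Phlda2 call was kept under all 18 alternatives. Members called higher numbered 1 instead of 2 with limma voom, with log2(TPM + 1) at a mean TPM of at least 1 or without that filter, with log2(TPM + 0.1), with the replicate block and with sex as a covariate, and 1 to 2 when each library was left out. For Kcnq1 these values were 1.71 with voom, 0.31 with unfiltered log2(TPM + 1), 1.74 with the replicate block and 1.70 with sex. Ascl2 passed without KO replicate 1 (4.23 ± 1.01, SE; edgeR, Benjamini-Hochberg adjusted p = 0.0340). It had no value in the fits whose filter removed it, nor had Kcnq1, Tnfrsf23 and Tnfrsf26 at a mean TPM of at least 1. No member was called lower under any alternative.

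Signs turned for genes that did not pass. Cdkn1c was at -0.02 with library totals, -0.01 in the 3 TPM fits and -0.06 to 0.25 with each library left out, the lowest without KO replicate 1. Cd81 was at -0.06 with library totals and -0.01 in the TPM fits. Osbpl5 was at 0.0013 with voom and between -0.09 and 0.10 with each library left out (0.02 without KO replicate 2, 0.01 without KO replicate 3), and Tssc4 between -0.25 and 0.07, the highest without HET replicate 3. Nadsyn1 was at -0.08 with library totals, -0.18 (log2(TPM + 1), both filters), -0.20 (log2(TPM + 0.1)), -0.06 with length offsets and -0.04 to 0.28 with each library left out. Mrpl23 was at -0.05 with library totals and -0.01 to 0.19 with each library left out, and Tnfrsf26 between -0.45 and 0.0046. The median of all genes itself moved to -0.17 with library totals, and to -0.13 and -0.14 in the filtered TPM fits; the cause was not tested. Among other named genes, at least 1 TPM fit lost the calls for Atp10a, Cars, Cd151, Cd9, Dusp8, Kcnq5, Mest, Sfmbt2, Slc22a17, Snrpn and Zim1. Library totals lost those for Cars, Cd9 and Mest, and sex those for Cars, Dusp8, Igsf8 and Slc22a17.

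Neighbours called higher numbered 0 instead of 1 with library totals, the 3 TPM fits, sex and length offsets, 2 with DESeq2 and the replicate block, and 0 to 1 with each library left out. Over all genes, 836 were higher and 327 lower. DESeq2 gave 1346 and 586. The TPM fits gave 411, 371 and 522 higher. Library totals gave 1887 lower and sex as a covariate 162 lower. Leaving out each library gave 526 to 916 higher and 116 to 272 lower. Over transcripts, 795 were higher and 100 lower. The higher and lower numbers were 2067 and 624 with DESeq2, 510 and 62 with voom, 493 and 232 with log2(TPM + 1), 435 and 159 with log2(TPM + 0.1), 200 and 12 with the replicate block, and 448 and 35 with sex. Lower transcripts numbered 421 with library totals, 156 at 10 counts in every library of a group and 206 with unfiltered TPM. Leaving out each library gave 363 to 602 higher and 37 to 65 lower transcripts. Member transcripts called higher were 2 with DESeq2. Isoform shares that separated the groups numbered 0, and 0 to 2 with each library left out.

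Expression values showed no pairing of libraries by replicate number. The labels do not say whether same-numbered libraries shared a litter, and this was not tested. Deviations of same-numbered libraries correlated at -0.058, -0.048 and -0.031, and no library correlated best with its own number. With the replicate block 707 genes were higher and 265 lower. Depth limits Kcnq1 and Ascl2, whose HET libraries held at most 18.1 and 1 counts. It also limits the size of the Phlda2 fold change, as no HET library held more than 24 counts of that gene.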
